A study of Caenorhabditis elegans with 12 samples.

Results

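The vitellogenin genes vit-1 to vit-6 of the nematode Caenorhabditis elegans encode its yolk proteins. They were taken by name, as 6 of the 46904 genes of the deposited count table, and 6 of the 6 passed the filter on low counts that left 16526 genes for testing. Polyadenylated RNA was sequenced from 3 liquid cultures labelled wt and 3 labelled glh1. GLH-1 is a germline helicase of the RNA granules called P granules, and the study compares gene expression and polysome loading between these genotypes. The glh1 allele and the strain background are not given in the sources used here. Worms of both genotypes were fed the bacterium OP50, grown in liquid medium from synchronised first-stage larvae for about 40 h at 20 °C, and harvested when most were young adults. They received no other treatment named in the labels. Each lysate was divided, so that a total RNA library and a library of the polysome fraction of a sucrose gradient came from every culture, 3 libraries in each of 4 groups. Each library pools a whole culture of worms. The main fit treats the libraries as independent, although both libraries of a culture came from the same lysate. Its p-values therefore rest on the spread between libraries of a group, with each culture entering in both fractions. Fits of the fractions with the culture as a block use the spread within cultures.

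Yolk proteins are made in the intestine of the adult hermaphrodite, secreted into the body cavity and taken up by growing oocytes through the receptor RME-2. Larvae and males make little of them, so the transcripts are used as marks of the adult hermaphrodite. The genes fall into sequence groups: vit-1 and vit-2 are close paralogs, vit-3, vit-4 and vit-5 are close paralogs, and vit-6, the most diverged, encodes a precursor that is cut into smaller yolk polypeptides. In whole worms, fewer cells of a type and less RNA per cell cannot be told apart.

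Before the vitellogenins are compared, 1 culture needs to be described. The culture labelled wt 1 lay with the glh1 cultures at several vitellogenins, but not at 2 other genes that separate the genotypes. The gene ztf-28 stood at 18.1, 26.8 and 21.7 CPM (counts divided by the TMM-scaled library total) in wt total RNA of cultures 1 to 3, and at 2.37 to 3.32 CPM in glh1 total RNA. Y102A5C.2 stood at 8.76, 12.1 and 9.01 CPM in wt and at 0.134 to 0.298 CPM in glh1. The wt 1 library lay with wt at these genes. They were named as genes that separate the genotypes, so this placement follows from the choice and gives no independent support for the label. The targeted gene, glh-1, was measured at 306, 424 and 305 CPM in wt total RNA and at 532 to 586 CPM in glh1 total RNA, so it was not lower in glh1. Library totals ran from 34520267 to 49672537 estimated counts, of which annotated ribosomal RNA took 3.07 to 45.7%. In total RNA its share was 28.8 to 40.4% in wt and 13.5 to 27.9% in glh1, so the genotypes did not overlap. In polysomal RNA it was 4.89 to 9.51% in wt and 3.07 to 45.7% in glh1. Results that rest on wt culture 1 are given with and without it.

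The tissue label reads whole embryo, which differs from the growth protocol. Of the 8 zygotic embryo genes, hlh-27 was listed at 0 in 8 of 12 libraries and the other 7 at 0 in none, and the summed level of the 8-gene list was 2.24 to 7.46 CPM in total RNA over its 5 genes that passed the filter. The 5 adult cuticle collagens summed to 472 to 1116 CPM in the same libraries, and the 12 intestinal genes to 3642 to 5556 CPM. Most of these sums came from col-19 and asp-1, with means of 858 and 3414 CPM in wt total RNA. The vitellogenins themselves summed to 15054 to 27161 CPM in total RNA.

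The 6 genes lie at 5 places in the WBcel235 genome. On chromosome X, vit-4 (WBGene00006928, 3558769 to 3563965) and vit-3 (WBGene00006927, 3567355 to 3572549) are neighbours on the minus strand, 3389 bp apart. The gene vit-5 (WBGene00006929) lies on the plus strand of X at 3403471 to 3408603. Also on the plus strand of X are vit-2 (WBGene00006926) at 5101042 to 5106169 and vit-1 (WBGene00006925) at 7727889 to 7733168. The gene vit-6 (WBGene00006930) is on the plus strand of chromosome IV at 8261157 to 8266459. Their exons cover 4870 to 5088 bases, so their levels differ little for length.

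How reads were divided among the paralogs can be read from the deposited values. The estimated count of vit-6 was a whole number, to within 0.000001, in 12 of 12 libraries. Those of vit-1 to vit-5 were whole in 0 of 12. The sum of vit-1 and vit-2 was whole in 12 of 12 libraries, and so was the sum of vit-3, vit-4 and vit-5, whereas each of the 3 sums of a pair within vit-3, vit-4 and vit-5 was whole in 0 of 12. Reads were therefore shared between vit-1 and vit-2 and among vit-3, vit-4 and vit-5, the value of each of these 5 genes is an apportioned estimate, and the values of vit-6 and of the group sums are not. In each library where vit-3 and vit-4 were low they held 7.84 to 53.4 estimated counts each, beside at least 12269 for vit-5, and what part of these came from apportioned reads was not tested.

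Among the vitellogenins vit-2 was the most abundant, followed by vit-6 and vit-5, and vit-1, vit-3 and vit-4 were far lower. Per kilobase of exon, vit-2 measured 2733 ± 146 CPM (SD, n = 3) in glh1 total RNA, vit-6 659 ± 73.2, vit-5 260 ± 13.6 and vit-1 3.81 ± 0.358. In the same libraries vit-3 stood at 0.186 ± 0.0715 and vit-4 at 0.177 ± 0.0355, with vit-3 above vit-4 in 2 of 3 libraries. In wt total RNA, vit-2 measured 2722 ± 418, vit-6 1206 ± 665 and vit-5 460 ± 157 per kilobase, in that order within 3 of 3 libraries. Of the low members, vit-3 measured 13.9 ± 12.0, vit-1 11.4 ± 7.76 and vit-4 5.92 ± 5.07 in wt total RNA, where the SD is wide because wt culture 1 lay far below the others. Within wt libraries of total RNA, vit-4 was below both vit-1 and vit-3 in 3 of 3, while vit-1 was above vit-3 in 1 of 3. The order of the means in polysomal RNA was the same within each genotype. Together the 6 genes took 2.21 to 3.44% of the counts outside ribosomal RNA in total RNA and 0.748 to 1.63% in polysomal RNA.

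**Figure D1:**
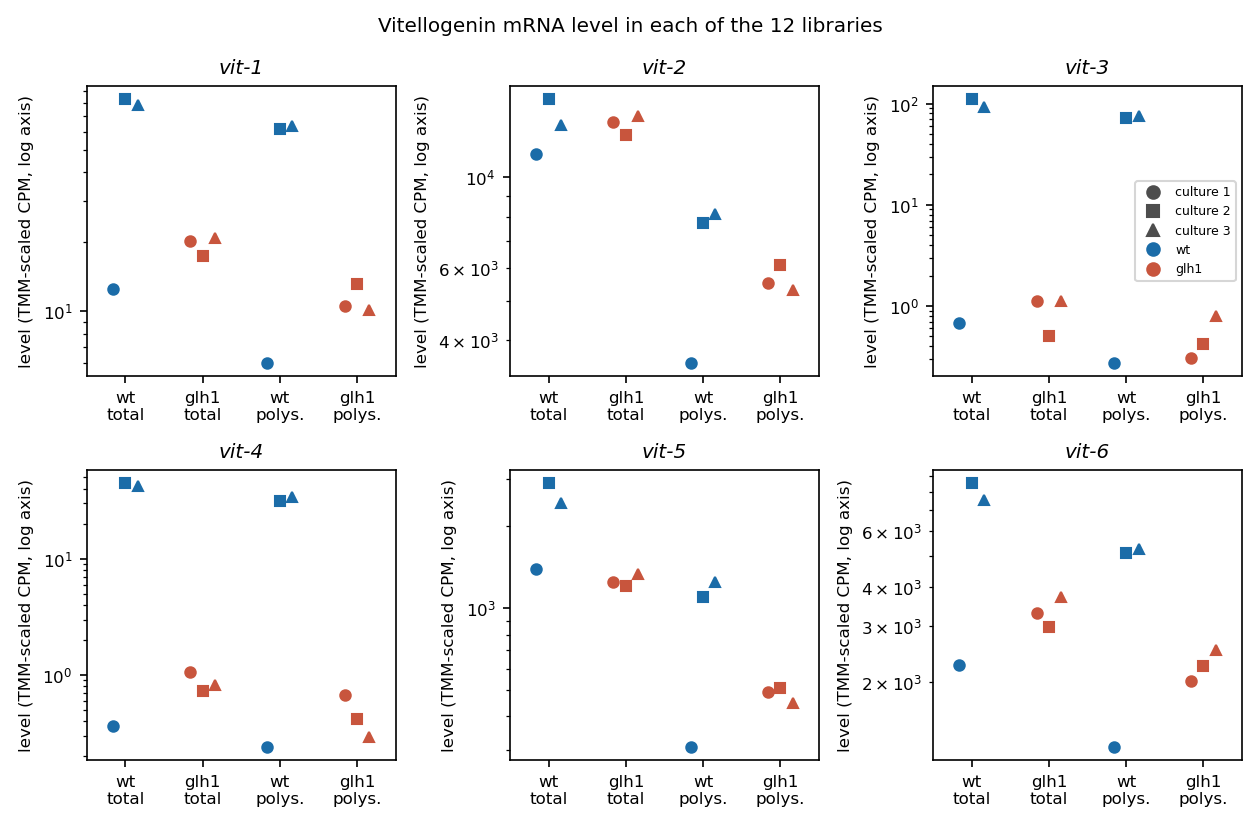
Level of each vitellogenin in every library, in CPM scaled by TMM, on a log axis that differs between panels. Colours give the genotype and shapes the culture number. The wt culture 1 library lies with or below the glh1 libraries for vit-1, vit-3, vit-4 and vit-6. It also lies below them for vit-2 in both fractions and for vit-5 in polysomal RNA. The level of vit-2 varies by 1.36-fold across wt total RNA and 2.31-fold across wt polysomal RNA.

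Within the vit-3, vit-4 and vit-5 group, vit-3 varied most between cultures. In total RNA it measured 0.685, 111 and 93.7 CPM in wt cultures 1 to 3 and 1.13, 0.509 and 1.11 CPM in glh1. In polysomal RNA it measured 0.274, 71.4 and 75.1 CPM in wt and 0.306, 0.419 and 0.803 CPM in glh1. Wt cultures 2 and 3 were high, and wt culture 1 lay inside the glh1 range in total RNA and below it in polysomal RNA, so the groups overlapped.

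Its neighbour vit-4 was likewise high in wt cultures 2 and 3. It measured 0.367, 44.7 and 42.7 CPM in wt total RNA and 1.07, 0.724 and 0.825 CPM in glh1 total RNA. The polysomal values were 0.242, 31.6 and 34.1 CPM in wt and 0.680, 0.419 and 0.292 CPM in glh1. Wt culture 1 was the lowest library for vit-4 within each fraction. Between the wt total RNA libraries the highest vit-3 level was 162-fold the lowest, the second widest log2 range among the 16526 genes (7.24, against a median of 0.60 over all genes). For vit-4 the highest was 122-fold the lowest, the rank 3 range.

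The third gene of this group, vit-5, varied far less. It measured 1396, 2883 and 2448 CPM in wt total RNA and 1249, 1210 and 1339 CPM in glh1 total RNA, so that the wt libraries lay above the glh1 libraries. In polysomal RNA it measured 309, 1103 and 1253 CPM in wt and 490, 508 and 448 CPM in glh1, where wt culture 1 was the lowest and the groups overlapped. Of the group's estimated counts, vit-3 and vit-4 together held 5.11% (95% exact interval 4.97 to 5.26) and 5.28% (5.16 to 5.40) in wt total RNA of cultures 2 and 3. They held 0.0753% (0.0545 to 0.101) in wt culture 1 and 0.0996% (0.0727 to 0.133) to 0.177% (0.145 to 0.215) in glh1. These intervals cover counting error only, and treat apportioned counts as reads.

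The pair vit-1 and vit-2 showed the same contrast on a smaller scale. The level of vit-1 was 12.5, 83.1 and 78.3 CPM in wt total RNA and 20.1, 17.3 and 20.7 CPM in glh1 total RNA. In polysomal RNA it was 5.99, 61.9 and 63.8 CPM in wt and 10.5, 13.1 and 10.2 CPM in glh1. Wt culture 1 was again below every glh1 library, and the other wt cultures were above them. The share of vit-1 in the pair was 0.533% (0.513 to 0.555) and 0.581% (0.563 to 0.599) in wt total RNA of cultures 2 and 3, 0.110% (0.101 to 0.120) in culture 1, and 0.136% (0.126 to 0.147) to 0.147% (0.138 to 0.157) in glh1.

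Its paralog vit-2 varied less than vit-1, and more in polysomal than in total RNA. It measured 11379, 15503 and 13416 CPM in wt total RNA and 13618, 12703 and 14127 CPM in glh1 total RNA. Polysomal vit-2 measured 3527, 7753 and 8151 CPM in wt, a 2.31-fold range, and 5529, 6125 and 5321 CPM in glh1. The genotypes overlapped in both fractions, with wt culture 1 lowest.

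Free of apportioned reads, vit-6 measured 2265, 8537 and 7525 CPM in wt total RNA and 3312, 2982 and 3722 CPM in glh1 total RNA. In polysomal RNA it measured 1243, 5126 and 5291 CPM in wt and 2006, 2240 and 2527 CPM in glh1. Wt culture 1 lay below all glh1 libraries of its fraction, and wt cultures 2 and 3 lay above them.

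**Figure D2:**
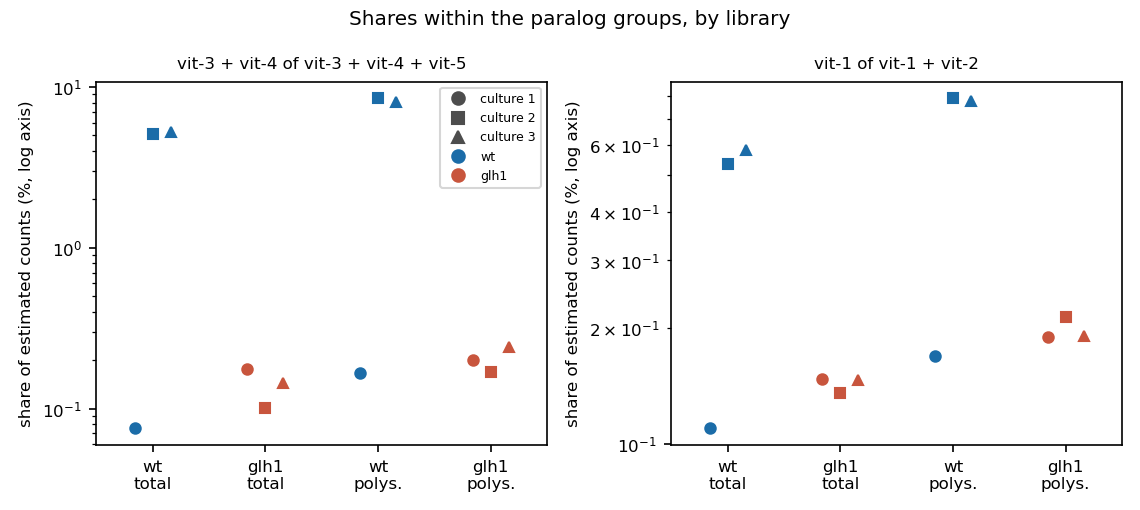
Share of estimated counts that vit-3 and vit-4 took of the vit-3, vit-4 and vit-5 group (left) and that vit-1 took of the vit-1 and vit-2 pair (right), in percent on a log axis, 1 point per library. Wt cultures 2 and 3 lie at 5.11 to 8.55% on the left, and wt culture 1 and the glh1 libraries at 0.0753 to 0.244%.

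The first comparison asks how vitellogenin mRNA differed between genotypes in total RNA. By edgeR's quasi-likelihood test with Benjamini-Hochberg adjustment over all genes, 0 of 6 vitellogenins were called at an adjusted p under 0.05, against 0.944% of all genes, 0.514% higher and 0.43% lower in glh1. At an unadjusted p under 0.05 there were 3 of 6, beside 2945 of all 16526 genes. DESeq2 called 2, vit-3 (adjusted p = 0.00293) and vit-4 (adjusted p = 0.0142), beside 867 of all genes. Limma on the authors' rlog values called 0, beside 125 genes. With only the total RNA libraries in the edgeR fit, vit-4 was called (adjusted p = 0.0444). The share of all genes called in that fit is not given here. The fitted log2 fold changes of glh1 against wt were -6.21 ± 1.69 (SE) for vit-3 (adjusted p = 0.0975), -5.06 ± 1.49 for vit-4 (adjusted p = 0.124) and -0.82 ± 0.42 for vit-5 (adjusted p = 0.328). The values of vit-1 (-1.58 ± 0.71), vit-6 (-0.87 ± 0.53) and vit-2 (0.01 ± 0.35) had adjusted p of 0.273, 0.410 and 0.997. The median over the 6 genes was -1.23, beside -0.07 over all genes tested. Only 1 of the 6, vit-5, had each wt library above each glh1 library, which held for 17.1% of all genes. None had each glh1 library above each wt library, which held for 16.6%.

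Both libraries of wt culture 1 were also left out, which leaves 2 wt libraries a fraction. That culture stands apart in part by its levels of these same genes, so the smaller errors and the calls without it follow in part from the choice and give no independent support. In that fit 5 of 6 vitellogenins were called lower in glh1 total RNA, against 3.96% of 16607 genes lower and 5.45% higher. The log2 fold changes were -6.67 ± 0.39 (SE) for vit-3, -5.52 ± 0.28 for vit-4, -1.94 ± 0.16 for vit-1, -1.15 ± 0.26 for vit-6 and -0.96 ± 0.20 for vit-5. For vit-2, the member not called, the value was 0.01 ± 0.28. With the total RNA library of wt culture 1 alone left out, vit-3 (adjusted p = 0.0346) and vit-4 (adjusted p = 0.0408) passed, and with its polysomal library alone left out vit-3 passed (adjusted p = 0.0387).

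With the paralogs summed, so that no apportioned value entered, the genotype difference of the vit-1 and vit-2 sum in total RNA was 0.00039 on the log2 scale (adjusted p = 1). The vit-3, vit-4 and vit-5 sum gave -0.89 (adjusted p = 0.316). The sums follow their most abundant members, vit-2 and vit-5.

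In polysomal RNA the same genes were compared. Again 0 of 6 vitellogenins were called by edgeR, against 1.06% of all genes (0.545% higher and 0.514% lower). At an unadjusted p under 0.05 there were 3 of 6, beside 2590 of all 16526 genes. DESeq2 called 2, beside 765 of all genes, and limma called 0, beside 127 genes. With only the polysomal libraries in the edgeR fit, 0 were called, with vit-3 at an adjusted p of 0.364 and vit-4 at 0.388. The log2 fold changes were -6.65 ± 1.77 for vit-3 (adjusted p = 0.110), -5.49 ± 1.56 for vit-4 (adjusted p = 0.126), -1.96 ± 0.73 for vit-1 (adjusted p = 0.217) and -0.88 ± 0.42 for vit-5 (adjusted p = 0.336). Those of vit-6 and vit-2 were -0.78 ± 0.53 (adjusted p = 0.505) and -0.19 ± 0.35 (adjusted p = 0.833). The median was -1.42, beside -0.01 over all genes. In none of the 6 did the wt libraries all lie above the glh1 libraries, beside 8.08% of all genes that did so, and in none did the glh1 libraries all lie above, beside 9.48%.

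Without wt culture 1, and with the same reservation, 5 of 6 were called lower in polysomal RNA, against 4.66% of genes lower and 4.11% higher. The log2 fold changes were -7.31 for vit-3, -6.14 for vit-4, -2.55 for vit-1, -1.36 for vit-5 and -1.27 for vit-6. The gene vit-2 was not called, with -0.56 ± 0.28 (SE). Without the polysomal library of wt culture 1 alone, vit-1, vit-3, vit-4 and vit-5 passed (adjusted p = 0.0357, 0.0267, 0.0324 and 0.0327), and without its total RNA library alone vit-3 passed (0.0476).

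**Figure D3:**
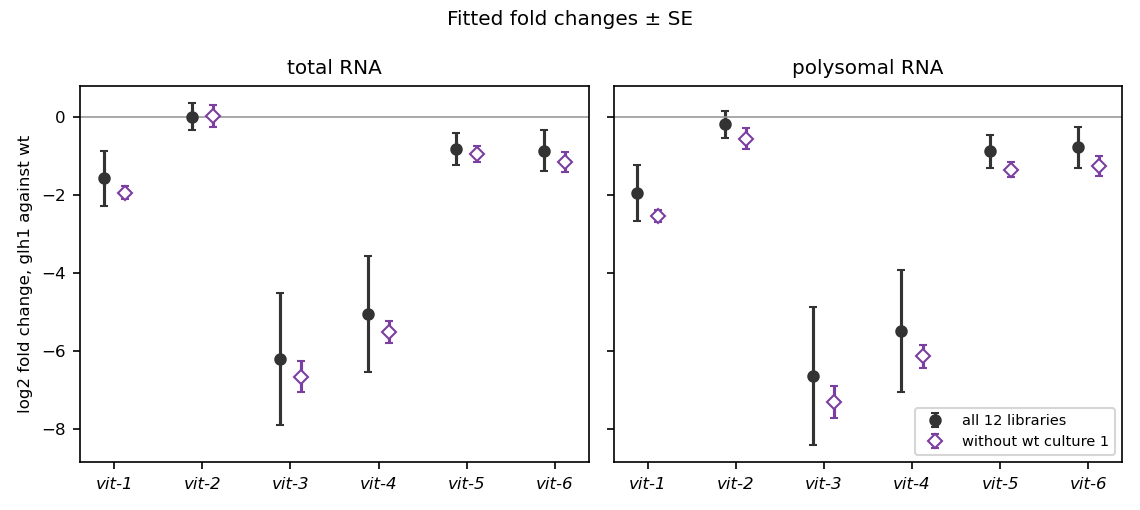
Fitted log2 fold change of glh1 against wt for each vitellogenin in total (left) and polysomal (right) RNA, with bars of 1 SE. Filled points use all 12 libraries and open points leave out both libraries of wt culture 1, where the SE of vit-3 in total RNA goes from 1.69 to 0.39.

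The next comparison asks how the vitellogenin mRNAs were represented in polysomes against total RNA of the same genotype. In wt, vit-2 fell by 1.05 (SE 0.35, adjusted p = 0.0301) and vit-5 fell by 1.34 (SE 0.43, adjusted p = 0.0251) on the log2 scale, 2 of 6 called, against 39.9% of all genes and 19.8% in that direction. The others measured -0.40 ± 0.70 (vit-1), -0.48 ± 1.32 (vit-3), -0.41 ± 1.22 (vit-4) and -0.65 ± 0.53 (vit-6), with adjusted p of 0.345 to 0.811. The median of the 6 was -0.57, beside 0.06 over all genes. The total RNA libraries lay wholly above the polysomal ones for 2 of 6, beside 24.2% of all genes.

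In glh1 the same 2 genes fell, vit-2 by 1.25 (SE 0.35, adjusted p = 0.0126) and vit-5 by 1.39 (SE 0.43, adjusted p = 0.0194), against 42.7% of all genes called and 19.1% called lower. The others measured -0.78 ± 0.71 (vit-1), -0.93 ± 1.68 (vit-3), -0.85 ± 1.49 (vit-4) and -0.56 ± 0.53 (vit-6), with adjusted p of 0.390 to 0.679. The median was -0.89, beside 0.13 over all genes. In glh1 the total RNA libraries lay wholly above the polysomal ones for 5 of 6, all but vit-3, beside 29.3% of all genes.

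Since both libraries of a culture came from 1 lysate, the culture was also fitted as a block. With that block 3 of 6 passed in wt, against 44.9% of all genes and 20.9% lower: vit-1 (-0.59, adjusted p = 0.0469), vit-2 (-1.13, adjusted p = 0.0265) and vit-5 (-1.51, adjusted p = 0.00351). In glh1 4 of 6 passed, against 47.8% of all genes and 21.4% lower: vit-1 (-0.79, adjusted p = 0.0154), vit-2 (adjusted p = 0.0167), vit-4 (-0.91, adjusted p = 0.0159) and vit-5 (adjusted p = 0.00453).

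Without the block, the wt calls lay near the threshold and were lost when some libraries were left out, with the same direction each time. The vit-2 difference was -0.94 (adjusted p = 0.0886) and -1.01 (0.0988) without total RNA library 2 or 3 of wt, and -0.70 (0.0828) and -1.17 (0.0619) without polysomal library 1 or 2 of wt. It was -1.01 without total RNA library 1 (0.0700) or 3 (0.0695) of glh1, which enter this contrast through the shared estimate of spread. The vit-5 difference was -1.11 (0.0858) and -1.20 (0.0892) without total RNA library 2 or 3 of wt. Without wt culture 1 the wt value of vit-2 was -0.77 (adjusted p = 0.0766), and vit-5 stayed called at -1.08 (adjusted p = 0.00586). In glh1, where that culture enters through the shared spread, vit-1 (-0.87, adjusted p = 0.00126), vit-4 (-0.93, adjusted p = 0.0203) and vit-6 (-0.65, adjusted p = 0.0444) then passed as well. The share of all genes called in that fit is not given here, and it was 42.7% in the main fit. These added calls are therefore not read as particular to the vitellogenins.

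Within each culture the polysomal over total ratio was below 1 for each vitellogenin, 36 of 36 log2 ratios below 0. The log2 ratios of vit-5 ran from -2.17 to -0.97 and those of vit-2 from -1.69 to -0.72. They ran from -1.06 to -0.30 for vit-1, from -0.87 to -0.41 for vit-6, from -1.74 to -0.26 for vit-3 and from -1.36 to -0.32 for vit-4. Wt culture 1 gave the lowest ratios of vit-5 and vit-2.

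Transcript length moved with this comparison. Among the 231 genes with 4500 to 5500 exon bases, the length class of the vitellogenins, the median log2 ratio was -0.67, -0.70 and -0.89 in wt cultures 1 to 3 and -0.52, -0.33 and -0.92 in glh1, whereas over all genes it was -0.02 to 0.14. Of the 36 vitellogenin ratios, 24 lay below the median of their length class. The ratio of vit-5 did so in 6 of 6 cultures, vit-2 in 5, vit-1 and vit-6 in 4 each, vit-4 in 3 and vit-3 in 2. When a trend on exon length was removed from each library, 0 of 6 were called in either genotype, with vit-2 at -0.28 (adjusted p = 0.563) and vit-5 at -0.55 (adjusted p = 0.337) in wt, and -0.68 (adjusted p = 0.140) and -0.82 (adjusted p = 0.145) in glh1.

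**Figure D4:**
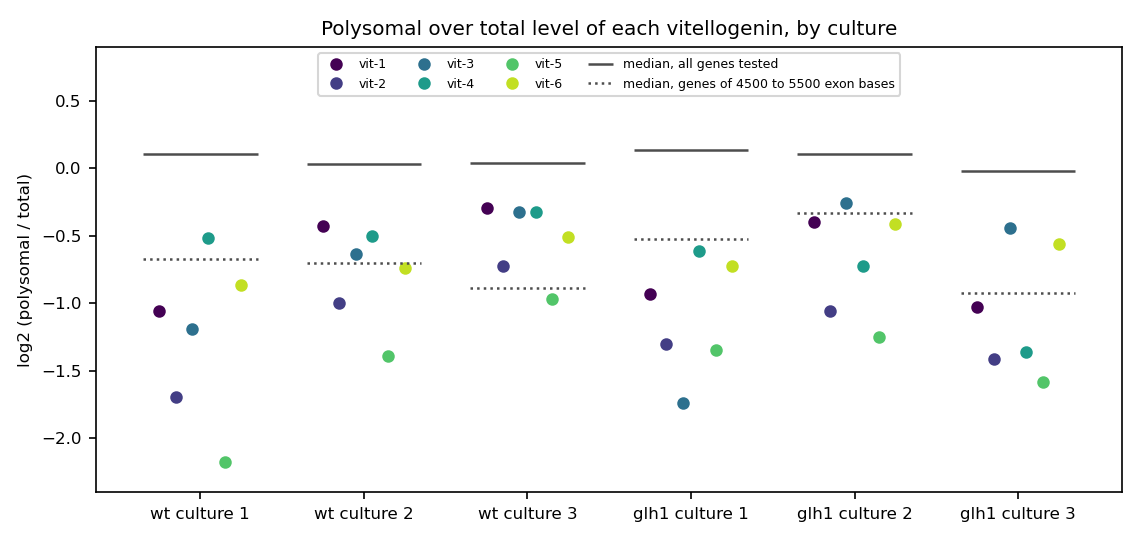
Log2 ratio of polysomal over total level for each vitellogenin in each culture. Solid lines mark the median of all genes tested and dotted lines that of the 231 genes with 4500 to 5500 exon bases. All 36 points lie below the solid lines, and 24 below the dotted ones.

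Whether the fraction difference itself differed between genotypes was tested as an interaction. By edgeR's quasi-likelihood test it was called for 0 of 6 vitellogenins and for 0% of all genes. At an unadjusted p under 0.05 there were 0 of 6 vitellogenins and 491 genes, DESeq2 called 3 genes and limma 0. The interaction was -0.06 ± 0.59 (SE) for vit-5, 0.09 ± 0.74 for vit-6, -0.20 ± 0.49 for vit-2, -0.38 ± 0.99 for vit-1, -0.43 ± 1.92 for vit-4 and -0.45 ± 2.12 for vit-3, each smaller than its SE. With errors of this size, differences of several-fold at vit-3 and vit-4 were not detectable.

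Genes that act on the vitellogenins were read as a list of 17 regulators. In total RNA 1 of 17 fell and 0 rose in glh1, against 0.43% of all genes lower. The gene was tra-1, which directs hermaphrodite sexual fate, at 64.2, 61.6 and 61.5 CPM in wt and 37.1, 31.6 and 31.9 CPM in glh1 (log2 fold change -0.90 ± 0.17 SE, edgeR adjusted p = 0.0252). The groups did not overlap, and wt culture 1 lay with wt. The list median was -0.18. The activators of yolk genes in the intestine unc-62 (-0.31, adjusted p = 0.594), ceh-60 (0.28, adjusted p = 0.628) and elt-2 (0.05, adjusted p = 0.945) did not pass. The zinc finger gene pqm-1 (0.72, adjusted p = 0.144) and mab-3, a repressor of yolk genes in males (-0.18, adjusted p = 0.821), did not pass either. In polysomal RNA 0 of 17 were called by edgeR, DESeq2 or limma, and 0 had an unadjusted p under 0.05, beside 2590 of 16526 genes. There tra-1 measured -0.07 (edgeR adjusted p = 0.868).

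Between fractions, 4 of 17 regulators were higher in wt polysomes and 3 lower, near the 20.1% and 19.8% of all genes. The higher ones were dbl-1 (1.21), which encodes a BMP ligand, unc-62 (0.99), elt-2 (0.85) and pqm-1 (0.73), with adjusted p of 0.00111 to 0.0233. The lower ones were the heterochronic gene lin-14 (-2.84), the insulin receptor gene daf-2 (-2.56) and rict-1 (-0.99), a component of a TOR complex. In glh1 3 were higher, dbl-1 (1.16), unc-62 (1.08) and tra-1 (0.84), and 5 were lower, lin-14, daf-2, lin-28, ceh-60 and rict-1 (-1.95 to -0.70), beside 23.6% and 19.1% of all genes.

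Of 10 genes for yolk assembly and uptake, 0 were called between genotypes by edgeR, DESeq2 or limma in either fraction. At an unadjusted p under 0.05 there were 2 in total RNA and 0 in polysomal RNA, beside 2945 and 2590 of 16526 genes. The yolk receptor gene rme-2 measured 312, 519 and 429 CPM in wt total RNA and 370, 400 and 360 CPM in glh1 (log2 fold change -0.16, adjusted p = 0.825). The gene dsc-4, for the lipid transfer protein that loads yolk particles, had -0.01 (adjusted p = 0.982). Between fractions in wt, dyn-1 and rab-35 rose and rme-8, rme-1 and chc-1 fell, 2 and 3 of 10, near the shares of all genes (20.1% and 19.8%). In glh1 rab-35 and dyn-1 rose and rme-8 and rme-1 fell, beside 23.6% and 19.1% of all genes.

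**Figure D5:**
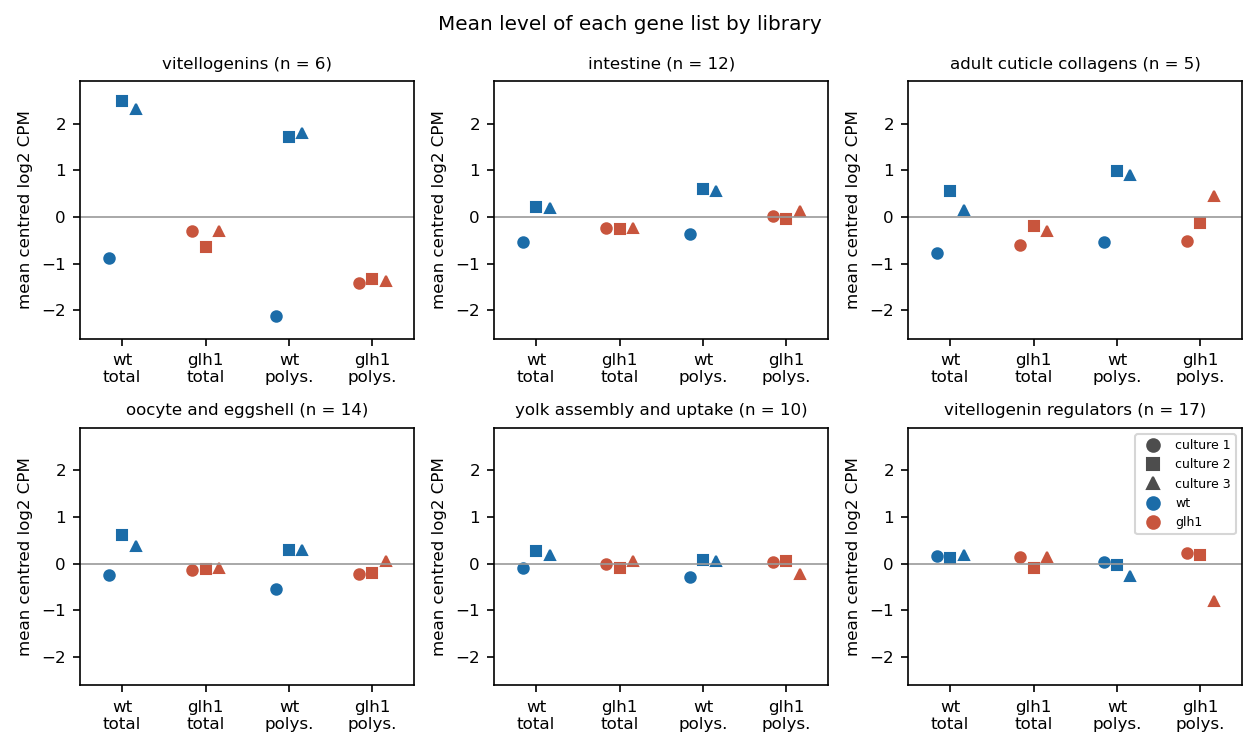
Mean centred log2 CPM of the vitellogenins and of 5 other lists in every library, on 1 common scale. For the vitellogenins in total RNA the wt libraries lie at -0.87, 2.49 and 2.32 and the glh1 libraries at -0.65 to -0.29. This mean weighs each gene equally. In these wt libraries vit-3 lies at -2.15, 5.09 and 4.85, and vit-2, the most abundant, at 0.36, 0.81 and 0.60. Wt culture 1 also lies lowest of its fraction in the intestinal, oocyte, collagen and yolk assembly and uptake lists. The regulators lie between -0.10 and 0.17 in total RNA. In polysomal RNA they lie between -0.81, in glh1 library 3, and 0.22.

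Other tissue markers also differed between cultures, with wt culture 1 low in some lists and high in others. The mean centred log2 CPM of 12 intestinal genes was -0.54, 0.21 and 0.18 in wt total RNA and -0.25 to -0.23 in glh1. That of 14 oocyte and eggshell genes was -0.26, 0.61 and 0.38 in wt and -0.14 to -0.10 in glh1. For 8 genes of germline proliferation and meiosis it was 0.14, 0.72 and 0.52 in wt and 0.18 to 0.27 in glh1. Wt culture 1 lay below the glh1 libraries in these 3 lists.

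Adult cuticle collagens gave opposite pictures by summary. Their mean centred value was -0.77, 0.56 and 0.16 in wt total RNA and -0.59 to -0.20 in glh1, whereas their summed level was 1116, 877 and 689 CPM in wt, highest in culture 1, and 472 to 527 CPM in glh1. The sum follows col-19, with a mean of 858 CPM in wt total RNA, beside 3.14 (bli-1) to 17.1 CPM (col-7) for the others. The mean centred value weighs each gene equally. The 5 zygotic genes that passed lay at -0.44, 0.57 and 0.14 in wt and -0.51 to -0.23 in glh1. Muscle genes went the other way, at 0.27, 0.03 and -0.08 in wt and -0.23 to -0.06 in glh1. Neuronal genes lay at -0.0016, -0.22 and -0.12 in wt and 0.21 to 0.31 in glh1, and sperm genes at -0.06, -0.42 and -0.36 in wt and -0.19 to 0.02 in glh1. Among the glh1 polysomal libraries, library 3 lay apart in some lists. It stood at -0.57 for neuronal genes (0.38 and 0.44 in libraries 1 and 2) and at 0.87 for sperm genes (-0.21 and -0.23). For the collagens it stood at 0.45 (-0.52 and -0.14), and for the vitellogenins at -1.36 (-1.40 and -1.33). The part of these tissues in the vitellogenin differences was not tested.

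Few genes of these lists were called between genotypes in total RNA, where 0.944% of all genes were. By edgeR 0 of 12 intestinal genes and 0 of 5 collagens were called. At an unadjusted p under 0.05 there were 2 and 1, beside 2945 of 16526 genes. DESeq2 called 1 and 0, beside 867 of all genes, and limma called 0, beside 125 genes. Of the oocyte genes 1 of 14 fell, lin-41 (-1.27 ± 0.21 SE, adjusted p = 0.0124). The microvillar actin gene act-5 stood at 52.8, 366 and 304 CPM in wt and 91.0 to 98.0 CPM in glh1 total RNA (-1.35, adjusted p = 0.313). The acid phosphatase gene pho-1 stood at 3.67, 11.5 and 15.4 CPM in wt and 3.26 to 3.75 CPM in glh1 (-1.53, adjusted p = 0.186). Wt culture 1 was low for both. The fatty acid desaturase gene fat-6 went the other way, at 515, 355 and 349 CPM in wt and 703 to 781 CPM in glh1 (0.86, adjusted p = 0.0810). Without wt culture 1, 4 of 12 intestinal genes were called lower (act-5, ifb-2, ifc-2 and pho-1) and fat-6 higher in total RNA, beside the 3.96% and 5.45% of all genes given above. In that fit 4 of 14 oocyte and eggshell genes, 1 of 5 zygotic genes and 1 of 17 regulators were also lower. Of the neuronal genes 2 of 8 were higher. No gene of the collagen, muscle, germline, sperm or yolk assembly and uptake lists was called.

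The 3 genes within 10000 bp of vit-3 or vit-4 were read as well. The gene ckc-1 measured 4.77, 7.56 and 12.0 CPM in wt total RNA and 4.48 to 5.05 CPM in glh1 (log2 fold change -0.76, adjusted p = 0.256). The gene rgs-7 measured 15.8, 23.9 and 20.1 CPM in wt and 12.8 to 15.5 CPM in glh1 (-0.52, adjusted p = 0.282), and T27A10.5 did not pass the filter. Both varied far less between wt cultures than vit-3 or vit-4.

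Over the 12 libraries, the profile nearest to the mean of the 6 vitellogenins among 5145 named genes with a mean of at least 10 CPM was that of txt-4, at a root-mean-square difference of 0.47 in centred log2 CPM. It measured 9.98, 57.4 and 45.0 CPM in wt total RNA and 8.89 to 10.4 CPM in glh1. Next came ctsa-1.2 (0.68), lon-1 (0.70), gba-4 (0.76), bcf-1 (0.84), col-81 (0.87), tatn-1 (0.88) and gst-27 (0.91). By the same measure vit-1 differed from the members' mean by 0.34, vit-6 by 0.82, vit-5 by 0.94, vit-2 by 1.29, vit-4 by 1.43 and vit-3 by 1.90. The profiles share the same libraries, and the likeness is a description.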

How the data were processed

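The deposited count table holds the authors' estimated counts per gene, of which 3.79 to 4.80% per library are not whole numbers. The authors also deposited rlog values, on a log2 scale, for 12709 genes. Per the submitters' processing notes, Trimmomatic 0.36, STAR 2.6.1b, RSEM 1.3.0, R 3.6.1, DESeq2 1.24.0 and the build WBcel235 were used. The count table's own name reads kallisto. Which tool counted the reads, and whether it used the strand, is not stated there. Symbols were found for 44017 genes; positions come from Ensembl release 115.

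After rounding, edgeR 4.0.16 (R 4.3.3) was run on the estimated counts: filterByExpr, TMM, and 1 robust quasi-likelihood fit of 4 group means to 12 libraries. P-values were adjusted by Benjamini and Hochberg over 16526 genes in each of 5 contrasts, and genes under 0.05 were called. Levels are TMM-scaled CPM, and log2 CPM used a prior count of 2. In data simulated for glh1 against wt in total RNA with these 16526 genes, 13 of 100 genes changed 2-fold and 70 of 100 changed 4-fold were called, with 4 false calls. The 13 alternatives included DESeq2 1.42.0 and limma 3.58.1. The members and lists were chosen with earlier results of these data known. Named from each list were members that passed in a contrast described, otherwise up to 2 with the smallest adjusted p in total RNA. The 8 nearest profiles were ranked by root-mean-square difference. Some genes were named outside that rule for their known role or after their values were seen (rme-2, dsc-4, unc-62, ceh-60, elt-2, mab-3, ztf-28, Y102A5C.2, act-5, and the neighbours of vit-3 and vit-4).

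Pairing in the fraction contrasts comes from the protocol, which divides each lysate between both fractions. Deviations of such a pair from their group means correlated at 0.756, 0.440 and 0.303 in wt cultures and at 0.0989, -0.163 and -0.206 in glh1 cultures. Figures were drawn with matplotlib 3.10.9 in Python 3.11.15.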

Additional observations from a re-analysis of the deposited data

How the results depend on the processing

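Counts of vitellogenins called moved as follows, and the calls among all genes moved too. In total RNA the main fit called 156 genes and DESeq2 867. Without wt culture 1, 658 were lower and 905 higher. In polysomal RNA these were 175, 765, 774 and 682. With the replicate block 44.9% of all genes were called between fractions in wt and 47.8% in glh1, beside 39.9% and 42.7%. For the other settings no such share is given, so their counts are not read as particular to the vitellogenins. For glh1 against wt in total RNA, 0 became 1 with only the groups compared, 2 with the DESeq2 Wald test and 5 without wt culture 1; leaving out each library in turn gave 0 to 2. In polysomal RNA, 0 became 2 with DESeq2 and 5 without wt culture 1, and 0 to 4 with each library left out. For polysomal against total RNA in wt, 2 became 1 with upper-quartile scaling, with no filter or without wt culture 1, 0 with only the groups compared or with the length trend removed, and 5 with the paralogs summed, where vit-1 and vit-2 share a value and so do vit-3, vit-4 and vit-5; each library left out gave 0 to 2. In glh1, 2 became 3 with only the groups compared (vit-1, adjusted p = 0.0105), 4 with the replicate block, 5 with the paralogs summed, 0 with the length trend removed and 5 without wt culture 1, and stayed at 2 with each library left out. The replicate block gave 3 in wt. The interaction count was 0 throughout. Apart from construction (fewer samples, values summed), the cause was not tested.

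Signs turned in these cases. In total RNA vit-1 became 0.00039 with the paralogs summed, since vit-2 dominates that sum. In wt polysomal against total RNA, removing the length trend gave vit-1 0.41, vit-3 0.33, vit-4 0.40 and vit-6 0.14, and in glh1 vit-6 0.041. The interaction of vit-6 became -0.054 with upper-quartile scaling, -0.076 with no filter, -0.015 with rRNA genes removed, -0.10 with the length trend removed and -0.12 without wt culture 1. That of vit-5 became 0.11 with the replicate block and 0.10 with limma, and that of vit-3 0.12 with limma. With each library left out, vit-2 ran from -0.10 to 0.12 in total RNA and from -0.56 to 0.0055 in polysomal RNA. In wt polysomal against total RNA, vit-1 ran from -0.88 to 0.20, vit-3 from -1.07 to 0.20 and vit-4 from -0.99 to 0.27. The interaction ran from -1.07 to 0.10 for vit-1, -0.64 to 0.00036 for vit-2, -1.22 to 0.13 for vit-3, -1.21 to 0.15 for vit-4, -0.62 to 0.28 for vit-5 and -0.50 to 0.48 for vit-6.

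The genotype numbers share only a number: same-numbered deviations correlated at 0.117, 0.104 and 0.0877 in total RNA and at 0.201, 0.0518 and 0.306 in polysomal RNA, and the block called 0 of 6 in both fractions. Depth limits vit-3 and vit-4, at 7.84 to 53.4 estimated counts where low.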
